A study of Arabidopsis thaliana with 8 samples.

Results

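The CESA genes of Arabidopsis thaliana encode the catalytic subunits of cellulose synthase, and the family consists of 10 loci, CESA1 to CESA10. They were taken by locus identifier, without use of any measured value, and 9 of the 10 were among the 17710 loci of the deposited count table. CESA9 (AT2G21770) was not listed, which is distinct from CESA10 (AT2G25540), which was listed with a count of 0. As a background, 60.9% of the 27562 protein-coding loci of the reference annotation were listed. The series describes 8 RNA-seq libraries from young shoots, 2 for each of 4 genotypes with different cotyledon cell shapes. The levels given here are those of Col, the Columbia accession, labelled with neither cae2-1 nor CA1-1, in libraries from the shoots of plants aged 7 days and grown on upright agar plates under 16 h of light and 8 h of dark. The columns of the other genotypes (cae2-1, CA1-1 and the cae2-1 CA1-1 combination) carry names that match no sample, so those genotypes were not analysed here, and the Col columns were assigned by name alone.

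Cellulose is spun out at the plasma membrane by rosette-shaped complexes in which different CESA proteins work side by side. In primary walls, the thin walls of growing cells, a complex combines CESA1, CESA3 and a member of the CESA6 group. CESA2, CESA5 and CESA9 are close relatives of CESA6 that can partly replace it, and CESA10 is the closest relative of CESA1. In the thickened secondary walls of xylem and fibres, the complex is built from CESA4, CESA7 and CESA8, known from the irregular xylem mutants irx5, irx3 and irx1.

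All 10 members carry the QxxRW motif, a signature of processive glycosyltransferases that lies in the catalytic region. The coding bases around it are shown because they let the eye follow how close the members are to each other, which bears on whether reads can be assigned to a single gene. The stretches are 63 bases of coding sequence on the coding strand, read from the TAIR10.1 genome at the RefSeq annotation, and capitals mark the 5 codons of the motif.
CESA1 (chr4:15641847-15641909, minus strand): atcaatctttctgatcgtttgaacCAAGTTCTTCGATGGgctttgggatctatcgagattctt
CESA10 (chr2:10867901-10867963, minus strand): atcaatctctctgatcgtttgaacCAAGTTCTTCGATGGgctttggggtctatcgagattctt
CESA3 (chr5:1531309-1531371, minus strand): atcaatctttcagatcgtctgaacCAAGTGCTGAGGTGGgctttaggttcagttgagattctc
CESA2 (chr4:18300991-18301053, plus strand): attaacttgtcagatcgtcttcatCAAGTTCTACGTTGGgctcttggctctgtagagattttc
CESA9 (chr2:9288564-9288626, plus strand): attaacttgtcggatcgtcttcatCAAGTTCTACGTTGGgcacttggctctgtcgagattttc
CESA5 (chr5:3077025-3077087, plus strand): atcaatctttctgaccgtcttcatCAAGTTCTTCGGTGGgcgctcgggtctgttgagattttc
CESA6 (chr5:25885361-25885423, plus strand): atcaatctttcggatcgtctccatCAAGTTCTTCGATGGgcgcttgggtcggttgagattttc
CESA4 (chr5:17718373-17718435, plus strand): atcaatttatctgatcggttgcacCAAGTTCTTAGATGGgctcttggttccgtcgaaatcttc
CESA7 (chr5:5737692-5737754, minus strand): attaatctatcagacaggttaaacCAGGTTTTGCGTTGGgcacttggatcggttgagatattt
CESA8 (chr4:10313688-10313750, minus strand): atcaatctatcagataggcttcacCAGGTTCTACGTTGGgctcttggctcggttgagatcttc
In this stretch CESA1 and CESA10 differed at 2 bases, CESA2 and CESA9 at 3 bases, and CESA5 and CESA6 at 6 bases. CESA1 differed from the secondary wall members CESA4, CESA7 and CESA8 at 14, 19 and 19 bases. It differed from CESA3 at 12 bases, from CESA5 and CESA6 at 14 each, and from CESA2 and CESA9 at 18 each. Distance from CESA1 in this stretch therefore did not clearly set the secondary wall members apart.

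Identity over the whole coding sequence set the members of the CESA1 and CESA6 groups apart from the rest. The 7 pairs within the CESA1 group (CESA1 and CESA10) or the CESA6 group (CESA2, CESA5, CESA6 and CESA9) were identical at 77.4% to 85.7% of aligned bases. CESA5 and CESA6 were the closest pair at 85.7%, followed by CESA2 and CESA9 at 84.3% and by CESA1 and CESA10 at 84.0%. The 3 secondary wall pairs, at 66.5% to 67.9%, lay far below these. They were closer than 30 of the 35 pairs from different groups, which spanned 63.0% to 69.2%, and 1 of those 35, CESA1 with CESA3, lay above all 3.

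**Figure D1:**
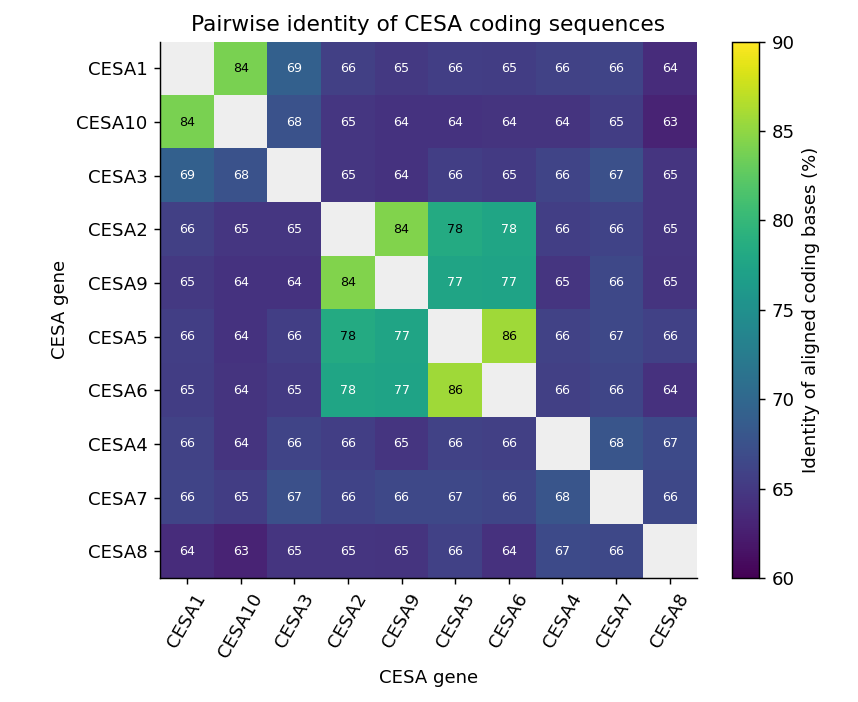
Identity of aligned coding bases, in percent, for each pair of the 10 CESA genes, which stand along both axes. The bright blocks are CESA1 with CESA10, and CESA2, CESA9, CESA5 and CESA6 with each other, while CESA4, CESA7 and CESA8 form no bright block, at 66.5% to 67.9%.

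Exact sharing of bases between members was limited to short runs, and the placing of reads with mismatches was not tested. The longest run of bases common to the transcripts of CESA1 and CESA10 was 38 bases, that of CESA2 and CESA9 was 41, and that of CESA5 and CESA6 was 50. Among all stretches of 50 bases in the 10 transcripts, 1 stretch was shared between members, namely between CESA5 and CESA6, and no stretch of 100 bases was. Of stretches of 36 bases, CESA1 shared 5 with CESA10 and CESA2 shared 12 with CESA9. CESA6 shared 18 such stretches with CESA5 and 4 with CESA9. Read length and the handling of reads with several matches are not stated in the sources used here. The 60 coding bases in which CESA1 and CESA10 differ most are shown because these genes stand at opposite ends of the measured range. Capitals mark the 25 mismatches, and positions count from 1 at the first base of the start codon.
CESA1 (coding bases 2663 to 2722, chromosome 4): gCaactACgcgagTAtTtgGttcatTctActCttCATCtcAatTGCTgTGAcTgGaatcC
CESA10 (coding bases 2603 to 2662, chromosome 2): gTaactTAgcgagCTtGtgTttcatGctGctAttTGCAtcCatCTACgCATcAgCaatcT

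Overlap with neighbouring genes on the chromosome is a further possible source of shared reads, which was not tested. The strand setting of the counting is not given. CESA8 shared 481 of its 3347 exonic bases with AT4G18770 on the opposite strand, and that gene was listed at 0 in both libraries. CESA4 shared 17 exonic bases with its upstream neighbour AT5G44020 on the same strand, a gene with 2862 counts in replicate 1 and 1263 in replicate 2, and 65 bases with AT5G44040 on the opposite strand, which had 81 and 98 counts. The other members shared at most 2.48% of their exonic bases with a neighbour.

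The depth was 2571129 counts over all models in replicate 1 and 2408685 in replicate 2. A level is a count relative to the scaled total of its library (CPM), divided by the length of the annotated transcript in kilobases where genes are compared with each other. The members' transcripts ranged from 3347 bases (CESA8) to 4247 bases (CESA2), so this division had little effect on their order. In these bulk samples, fewer cells of a type and less RNA per cell cannot be told apart. The tissue label was checked against markers. Among 10 green shoot markers 6 were listed, namely antenna and photosystem genes and the Rubisco gene RBCS1B. RBCS1A, RBCS2B, RBCS3B and LHCB2.1 were not listed. All 6 were higher in replicate 1 (exact binomial test against counting noise), against 27.6% of all models tested. Their levels summed to 60741 CPM there and 30675 CPM in the other library. RBCS1B had only 56 and 28 counts, or 22.5 and 11.3 CPM, so these sums describe antenna and photosystem genes. Of 10 root markers 7 had no count in either library, and all 10 summed to 31.7 and 12.1 CPM. CASP1 made up 21.3 and 4.43 CPM of these sums. Of the 2 root markers tested, CASP1 was higher in replicate 1 (adjusted p = 4.84e-07, exact binomial test) and CASP2 did not differ (adjusted p = 0.712, same exact test). Of 7 seed markers 4 were listed, and 3 of these were at 0 in both libraries. The part of the green tissue difference in the CESA values was not tested.

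CESA1 and CESA3, the 2 members that primary wall complexes cannot do without, were the most abundant. CESA1 (AT4G32410) was counted 1133 times in replicate 1 and 980 times in replicate 2, or 108 and 93.4 CPM per kb, with a mean of 101 ± 10.12 (SD, n = 2). Its level per kb stood at percentile 92.96 in replicate 1 and 92.1 in replicate 2 among the 17511 models with a known length. CESA3 (AT5G05170), a gene in which mutations give resistance to the herbicide isoxaben, had 537 and 1185 counts, or 56.3 and 125 CPM per kb, with a mean of 90.5 ± 48.3 (SD, n = 2). CESA1 was high in both libraries, whereas CESA3 was the highest member in replicate 2 and only the third in replicate 1, and the ranges of these genes overlapped. The ratio of CESA1 to CESA3 per kb was 1.91 in replicate 1 and 0.749 in replicate 2.

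The CESA6 group followed. CESA2 (AT4G39350) had 609 and 337 counts, or 57.5 and 31.9 CPM per kb, and a mean of 44.7 ± 18.1 (SD, n = 2). CESA6 (AT5G64740), known from the procuste mutant with short dark-grown hypocotyls, had 330 and 245 counts, or 31.7 and 23.6 CPM per kb, and a mean of 27.7 ± 5.74 (SD, n = 2). CESA5 (AT5G09870), which also acts in seed coat mucilage, had 225 and 256 counts, or 21.8 and 24.9 CPM per kb, and a mean of 23.4 ± 2.17 (SD, n = 2). CESA2 was thus the most abundant of these close relatives in both libraries, and CESA5 and CESA6 overlapped. The lower value of CESA2 and the higher value of CESA6 were nearly equal, so the gap between them was small.

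Within the CESA6 group, CESA2 took 52.3% of the counts in replicate 1 (exact Clopper-Pearson 95% interval 49.4 to 55.2) and 40.2% in replicate 2 (36.9 to 43.6). CESA6 took 28.4% (25.8 to 31.0) and 29.2% (26.2 to 32.4), so its part of the group was alike in both libraries. CESA5 took 19.3% (17.1 to 21.7) and 30.5% (27.4 to 33.8). It lay below CESA6 in replicate 1, while in replicate 2 the intervals of CESA5 and CESA6 overlapped, and their order there was not tested directly.

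The secondary wall members were low in both libraries, and their order was the same. CESA8 (AT4G18780) had 36 counts in replicate 1 (exact Poisson 95% interval 25.2 to 49.8) and 23 in replicate 2 (14.6 to 34.5), or 4.32 and 2.76 CPM per kb, with a mean of 3.54 ± 1.097 (SD, n = 2). CESA7 (AT5G17420) had 13 counts (6.92 to 22.2) and 10 counts (4.79 to 18.4), or 1.53 and 1.18 CPM per kb, with a mean of 1.36 ± 0.248 (SD, n = 2). CESA4 (AT5G44030) had 8 counts (3.45 to 15.8) and 6 counts (2.20 to 13.1), or 0.884 and 0.665 CPM per kb, with a mean of 0.774 ± 0.155 (SD, n = 2). The libraries did not overlap between these 3 genes, but the counting intervals of CESA7 and CESA4 did. Those of CESA8 and CESA7 also overlapped in replicate 2. Overlap of separate intervals does not decide an order, and no direct test between these genes was run. CESA8 held 63.2% of the counts of the 3 genes in replicate 1 (Clopper-Pearson 49.3 to 75.6) and 58.97% in replicate 2 (42.1 to 74.4). All these intervals cover counting error within a library only, and not the spread between libraries. Without molecular identifiers to separate copies of the same molecule, they may also be too narrow.

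CESA10 was listed at 0 in both libraries. Neither library listed any model with a count of 1, while 690 and 715 models were listed at 2, so a listed 0 may stand for 1 count and was given an upper limit of 4.74 counts per library (one-sided Poisson limit at 95%). For CESA10 this limit was 0.530 CPM per kb in replicate 1 and 0.532 in replicate 2. CESA1, its closest relative, was at least 203-fold higher per kb in replicate 1 and at least 176-fold higher in replicate 2. Listed zeros were common, as 3435 of 17921 models (19.2%) had no count in either library.

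**Figure D2:**
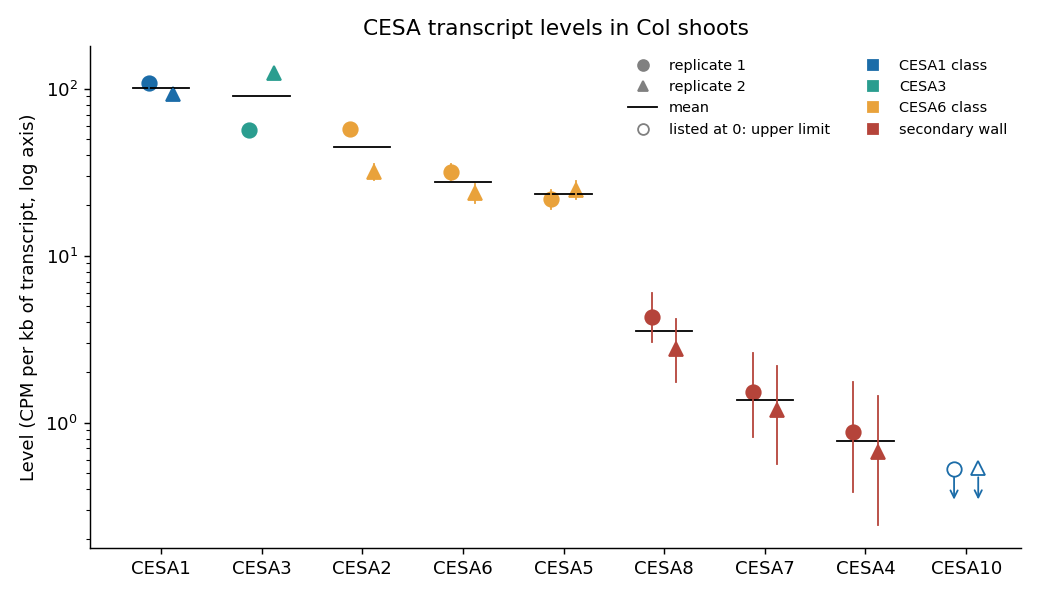
Level of the 9 listed CESA genes in Col shoots, in CPM per kb of transcript on a log axis, with circles for replicate 1, triangles for replicate 2, thin bars for the exact Poisson 95% interval of the count and black lines for the mean. CESA1, CESA3, CESA2, CESA6 and CESA5 lie between 21.8 and 125 CPM per kb, CESA8, CESA7 and CESA4 lie at or below 4.32, and the open symbols of CESA10 are upper limits.

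The 5 members counted for primary walls, CESA1, CESA2, CESA3, CESA5 and CESA6, lay above the secondary wall members in both libraries. CESA10, at 0, lay below them, and CESA9 was not listed. The lowest value of a CESA6 group gene, 21.8 CPM per kb for CESA5 in replicate 1, lay 5.06-fold above CESA8 in the same library, and in replicate 2 CESA5 lay 9.003-fold above CESA8. The sum of CESA1, CESA3 and CESA6 was 29.1 times that of CESA4, CESA7 and CESA8 per kb in replicate 1 and 52.4 times in replicate 2. Of the counts of all listed members, the secondary wall genes took 1.97% in replicate 1 (Clopper-Pearson 95% interval 1.497 to 2.55) and 1.28% in replicate 2 (0.913 to 1.75). Of the 28 pairs among the 8 members above 0, 25 had libraries that did not overlap. The 3 overlapping pairs were CESA1 with CESA3, CESA2 with CESA3, and CESA5 with CESA6. With 2 libraries, no permutation test between members can reach a threshold of 0.05, so these orders are descriptions.

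The summed level of the family changed little between the libraries while its make-up shifted. All listed members together stood at 282 CPM per kb in replicate 1 and 303 in replicate 2. The position of CESA1 held 38.2% of this sum in replicate 1 and 30.8% in replicate 2. That of CESA3 held 19.99% and 41.1%, and that of the CESA6 group 39.4% and 26.5%. As means of both libraries the 3 positions of the primary wall complex stood at 34.5% ± 5.23, 30.6% ± 14.9 and 33.0% ± 9.10 (SD, n = 2). They differed from each other by less than their spread between libraries.

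**Figure D3:**
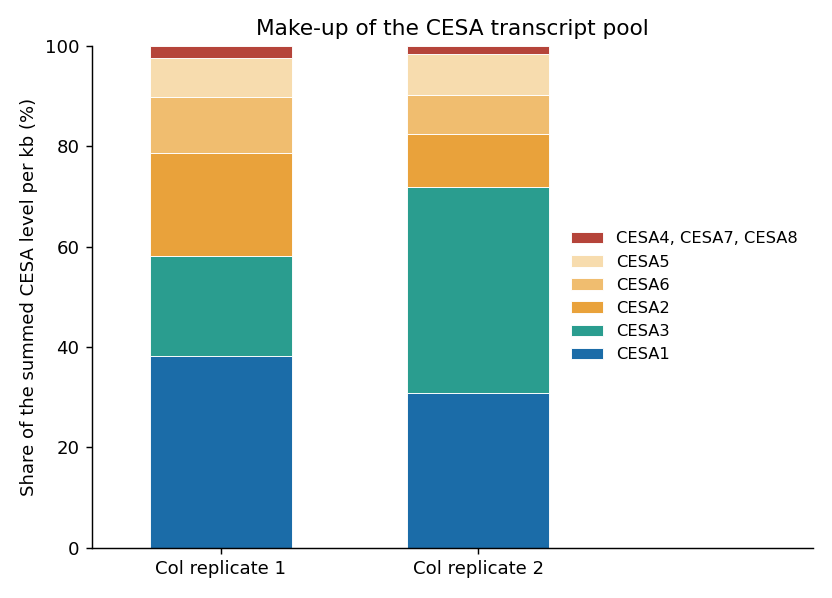
Share of each CESA gene in the summed CESA level per kb, in percent, for both Col libraries, with CESA4, CESA7 and CESA8 joined in 1 segment. The CESA3 segment is 19.99% in replicate 1 and 41.1% in replicate 2, and the CESA2 segment is 20.4% and 10.5%.

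The differences of single members between the libraries were compared with counting noise over the whole table. Of the 6 members with a mean of at least 5 CPM, 4 differed by the exact binomial test with Benjamini-Hochberg adjustment over all 10701 models tested, against 55.3% of all models tested, so the CESA genes were not distinguished by this count. This test compares these libraries and not conditions. CESA3 was 2.21-fold higher in replicate 2 (95% counting interval 2.00 to 2.45, adjusted p = 6.29e-55 by the exact binomial test). CESA2 was 1.80-fold higher in replicate 1 (1.58 to 2.07, adjusted p = 1.2e-17, same exact test). CESA6 was 1.34-fold higher in replicate 1 (1.14 to 1.59, adjusted p = 0.00122, same exact test), and CESA1 was 1.15-fold higher there (1.06 to 1.26, adjusted p = 0.00274, same exact test). CESA1 no longer passed without scaling of the libraries (adjusted p = 0.11, exact test; range over all alternatives 0.00214 to 0.11).

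CESA5 and CESA8 did not pass. The ratio of replicate 1 to replicate 2 was 0.877 for CESA5 (0.730 to 1.05, adjusted p = 0.228, exact binomial test) and 1.56 for CESA8 (0.900 to 2.76, adjusted p = 0.177, same exact test). CESA7 and CESA4 were below the filter, and their ratios of 1.297 (0.525 to 3.30) and 1.33 (0.405 to 4.65) leave both directions possible. The 3 secondary wall genes thus had ratios above 1, each with an interval that includes 1. The median log2 ratio of the 6 tested members was 0.32, and that of all tested models was −0.00. The median size of the log2 ratio, regardless of sign, was 0.53 for the members and 0.60 for all tested models. The change of CESA3 was exceeded in size by 20.9% of tested models and that of CESA1 by 81.6%.

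**Figure D4:**
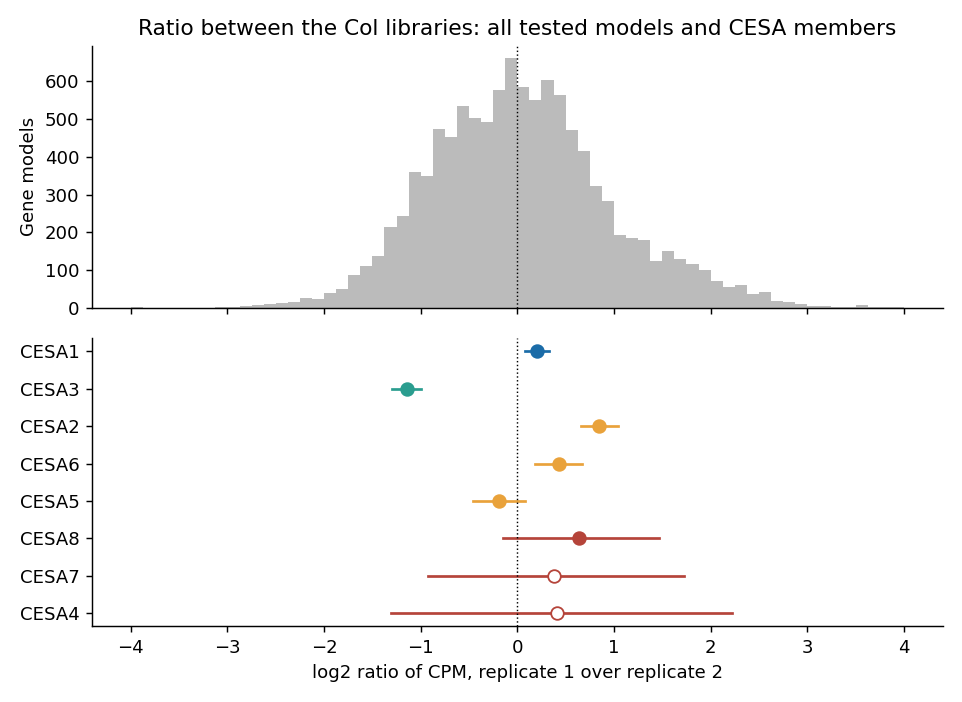
Upper panel, histogram of the log2 ratio of CPM (replicate 1 over replicate 2) for 10698 tested gene models with counts in both libraries. Lower panel, the same ratio for 8 CESA genes with 95% counting intervals, where open circles mark CESA7 and CESA4, which were below the filter; CESA3 lies at −1.15 and CESA2 at 0.85, both within the bulk of the histogram.

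Partners of the primary wall complex were abundant alongside the CESA genes. Of 16 genes of this list 11 were listed, all reached 5 CPM, and their median was 25.5 CPM per kb, beside 6.13 for all models with a length. The highest was CTL1 (AT1G05850, POM1), a chitinase-like protein needed for cellulose deposition, at 993 ± 215 CPM per kb (SD, n = 2). KOR1 (AT5G49720), the membrane endoglucanase that works with the complex, stood at 332 ± 38.7 CPM per kb. COB (AT5G60920), the COBRA protein that orients microfibrils, stood at 121 ± 72.1 CPM per kb. CTL1 and KOR1 therefore had more transcript per kb than any CESA gene in these libraries. Between the libraries 7 of the 11 genes were higher in replicate 2 and 2 in replicate 1, against 27.7% and 27.6% of all tested models. COB was 2.45-fold higher in replicate 2 (adjusted p = 2.76e-50, exact binomial test), a change of the same direction as that of CESA3.

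Of 10 genes of UDP-glucose supply, the substrate of cellulose synthase, 6 were listed. UGP1 (AT3G03250), a UDP-glucose pyrophosphorylase, was the highest at 96.7 ± 38.5 CPM per kb (SD, n = 2). SUS3 (AT4G02280) and SUS4 (AT3G43190), sucrose synthases, stood at 3.77 ± 2.98 and 0.556 ± 0.196 CPM per kb. SUS5 and CINV1, 2 of the 6 genes, were listed at 0 in both libraries. CINV1 was represented by model AT1G35580.3, so its 0 is that of this model. Of the 2 genes tested, SUS3 was higher in replicate 1 and UGP1 in replicate 2, where 55.3% of all tested models differed in either direction. All 6 receptor and signalling kinases of the wall integrity list were listed and tested, and 3 were higher in replicate 1 and 2 in replicate 2, against 27.6% and 27.7% of all tested models. FER (AT3G51550), the receptor kinase FERONIA, stood at 142 ± 14.97 CPM per kb. THE1 (AT5G54380), THESEUS1, found through a suppressor of the CESA6 mutant, stood at 38.9 ± 10.3 CPM per kb. BIN2 (AT4G18710), a brassinosteroid pathway kinase that phosphorylates CESA1, stood at 18.4 ± 7.15 CPM per kb.

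Most regulators of secondary walls had few or no counts, as had CESA4 and CESA7. Of 14 such genes 11 were listed, 4 of them at 0 in both libraries, and 1 reached 5 CPM. That gene was KNAT7 (AT1G62990), a homeodomain regulator of secondary walls, at 7.00 ± 2.42 CPM per kb (SD, n = 2), and it did not pass the test between the libraries (adjusted p = 0.152, exact binomial test). MYB46 (AT5G12870), a master switch that binds the promoters of CESA4, CESA7 and CESA8, had 17 counts in replicate 1 and was listed at 0 in replicate 2. MYB58 (AT1G16490), an activator of lignin genes, had 4 and 11 counts.

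The list of secondary wall and xylem enzymes also holds proteins that are not enzymes, among them TED6 and FLA11. Several of its genes reached higher levels than the secondary wall CESA genes. Of 20 genes 19 were listed, none at 0 in both libraries, and 11 reached 5 CPM, with a median of 5.02 CPM per kb. Of these 11 genes, 2 were higher in replicate 1 and 3 in replicate 2 by the exact test, against 27.6% and 27.7% of all tested models. XCP2 (AT1G20850), a protease of xylem vessels, was the highest at 95.3 ± 60.6 CPM per kb (SD, n = 2), from 180 counts in replicate 1 and 473 in replicate 2. TED6 (AT1G43790), a tracheary element protein that interacts with secondary wall CESA proteins, stood at 33.1 ± 7.68 CPM per kb. FLA11 (AT5G03170), a fasciclin-like protein of fibres, stood at 24.6 ± 5.36 CPM per kb. All 3 genes were above CESA8 in both libraries.

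**Figure D5:**
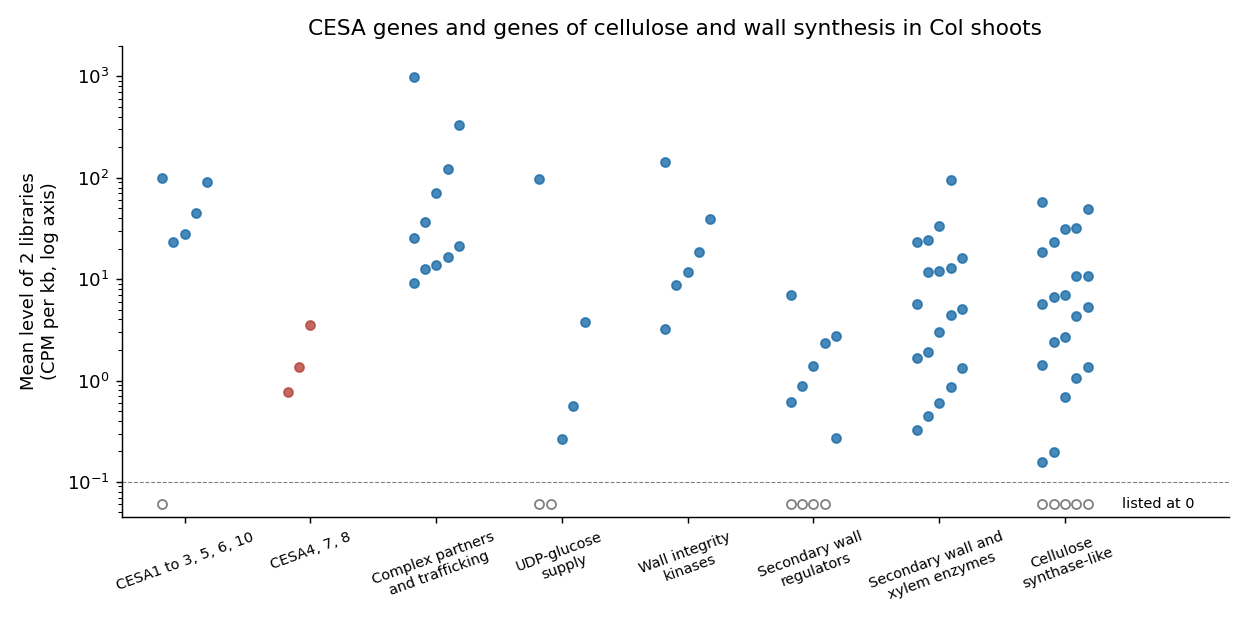
Mean level over both Col libraries, in CPM per kb on a log axis, for each listed gene of the CESA family and of 6 related gene lists, with open circles below the dashed line for genes listed at 0 in both libraries. CESA4, CESA7 and CESA8, in red, lie between 0.774 and 3.54 CPM per kb, in the range of the secondary wall regulators, while the highest genes among complex partners reach 993.

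The promoters of the 10 members were searched for motifs known from xylem genes, in the 250 bases before the annotated gene start and on both strands. The tracheary-element-regulating element (TERE; CTT, any base, AAAGC, any base, then A) was found in 1 of the 10 windows and in 0.366% of 27561 promoters of protein-coding genes. That window was the one of CESA4, and the match lay at bases −20 to −10 before the annotated start. All 11 bases of the match also lie in the last exon of the upstream gene AT5G44020, past its coding sequence, on the same strand. The 30 bases that hold it are shown because CESA4 was the lowest member above 0, with capitals for the match.
CESA4 (chr5:17714360-17714389, plus strand): tacataataaCTTGAAAGCTActctaagtt
The secondary wall MYB element SMRE was searched in all 8 of its forms, which read ACC, then A or T, then A, then A or C, then T or C. It was found in the windows of 4 members, CESA1, CESA4, CESA5 and CESA9, beside 29.3% of all promoters, and none of the matches overlapped the TERE match. These matches describe the letters in the windows.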

How the data were processed

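The deposited table holds raw read counts per gene model, per the file headers, which record no normalization by the authors. Reads were placed on TAIR10, per the submitters' processing notes; aligner, counting tool and strand setting are not stated in the sources used here. The columns of replicates 1 and 2 of Col match sample titles, and 6 other count columns were not used. The trimmed mean of M values (TMM) in edgeR 4.0.16 under R 4.3.3 gave the scaling factors. Transcript lengths, coding sequences and promoters came from the RefSeq annotation of TAIR10.1, which may differ from the authors' models; 17511 of 17921 models matched by model name, and a locus with several models was represented by the one with the most counts. Coordinates are those of TAIR10.1. For models averaging 5 CPM or more, the split of counts between the libraries was set against the scaled library sizes in a two-sided exact binomial test (scipy 1.17.1), adjusted by Benjamini and Hochberg's method with calls below 0.05; ratios carry no pseudocount. edgeR's biological coefficient of variation between the libraries was 0.411. The labels do not say whether the replicates came from separate plates or days, so the spread may be technical. Coding sequences were aligned with MAFFT. From each list the 3 members highest per kb were named, and some other members and markers were named for their counts or changes. The family and the lists were chosen for description with earlier results of these data known; the rule that takes the family's members, their locus identifiers, uses no measured value.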

Additional observations from a re-analysis of the deposited data

How the results depend on the processing

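The number of CESA genes beyond counting noise was 4 with TMM scaling, with relative log expression (RLE) factors, with no filter, at a mean of at least 20 CPM, with the bracketed column-name number as library size, and with the smaller tail of the binomial test doubled. The number was 3 without scaling, where CESA1 was lost (log2 ratio 0.12). The column-name and doubled-tail alternatives were chosen after seeing the data. With the doubled tail, 5835 of all tested models were called (54.5%). The ratio of primary to secondary wall genes was 40.7 as the mean of both libraries, 45.3 with coding length and 48.4 without length correction, and ranged from 29.1 to 52.4 when 1 library was left out. The summed level of the family was 293 CPM per kb and ranged from 282 to 303 when 1 library was left out. It was 369 with coding length, which is shorter than transcript length, and 160 with the number in the column name, which is larger than the sum of the counts. Coding length was taken from the annotation, since a protein table was not used here. Among single members, 34 calls kept their side of the threshold over these alternatives and 1, that of CESA1, was lost. With other scaling or length, 22 levels moved by less than the replicate spread and 10, with coding length or the column-name number, by more. Leaving out a library is not counted here, since a mean of 2 always stays within their SD. Low depth limits CESA4, CESA7 and CESA10 most. No contrast between genotypes, DESeq2 fit or replicate block was run. No paired analysis was possible because Col is the only genotype with columns matched to samples.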

Other observations

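The cellulose synthase-like genes, relatives of the CESA genes that make other wall polysaccharides, had a median of 3.51 CPM per kb in Col shoots. Of 30 genes 26 were listed, 5 of them at 0 in both libraries, and 15 reached 5 CPM. CSLC4 (AT3G28180), a synthase of the xyloglucan backbone, was the highest at 57.9 ± 8.78 CPM per kb (SD, n = 2), followed by CSLC5 (AT4G31590) at 49.4 ± 8.49 and CSLA2 (AT5G22740), of glucomannan synthesis, at 31.9 ± 16.9. All 3 means lay above that of CESA6, but CSLA2 overlapped CESA6. In replicate 1 CSLA2 stood at 19.9 CPM per kb and CESA6 at 31.7, and in replicate 2 at 43.8 and 23.6. All 3 cellulose synthase-like genes were higher in replicate 2 (log2 ratios of replicate 1 to replicate 2 of −0.31, −0.35 and −1.14, exact binomial test, adjusted p = 0.00795, 0.00223 and 1.3e-13). Over the list 6 of the 15 tested genes were higher in replicate 2 and 3 in replicate 1, against 27.7% and 27.6% of all tested models.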
